A study of Homo sapiens with 6 samples.

Results

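The tumor necrosis factor (TNF) ligand and receptor superfamily was followed in SKOV3 cells, a human ovarian cancer cell line, after siRNA knockdown of EIF5A2, which encodes a translation factor. Members were protein-coding genes whose symbol starts with TNFSF or TNFRSF, together with TNF, LTA, LTB, LTBR, FAS, FASLG, CD40, CD40LG, CD27, CD70, NGFR, EDAR, EDA2R and RELT, without readthrough genes. This gave 46 of the 58825 gene identifiers in the table, 17 ligands and 29 receptors. Cells received a negative control siRNA (NC) or si-EIF5A2, with 3 libraries in each group, and RNA was sequenced after 48 h. All 6 libraries come from this single cell line after transient transfection, and no other siRNA against EIF5A2 is named for them. The labels do not say whether libraries of a group came from separate cultures, so p-values measure the spread between these libraries, which may be technical.

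Ligands of this family are mostly membrane proteins that act as trimers, either on the cell surface or after a protease has cut them free. Death domain receptors share a domain through which some of them, such as FAS and the TRAIL receptors, recruit caspase-8 by way of the adaptor FADD, whereas most other signalling receptors bind TRAF adaptors and feed into NF-kappaB and JNK. Decoy receptors bind a ligand without passing on the signal. In carcinoma cells the family is best known for TRAIL and its death receptors and for TNF itself.

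The library totals lay between 46900204 and 74142267 estimated counts. From the spacing of low counts, 1 sequenced fragment was estimated to be worth 3.79 to 3.86 counts. The numbers of fragments, the floor and the counting intervals given here rest on this estimate. Values are given as CPM, which is counts scaled to a common library size by TMM, and comparisons between genes use the level, which is CPM per kilobase of exon. A gene at 0 counts may still have had up to 3 fragments, equal to 0.157 to 0.242 CPM depending on the library, and this floor covers counting error only. Across the 16208 genes tested, log2 CPM correlated with r of 0.964 to 0.974 within a group and 0.929 to 0.938 between groups. EIF5A2 itself fell to 12.7% of the NC level (log2 fold change -2.98, standard error 0.18, edgeR adjusted p = 1.60e-05), with all si-EIF5A2 libraries below all NC libraries. Of 11 epithelial and ovarian carcinoma markers, MUC16 was at 0 in every library and EPCAM reached at most 1.68 CPM, while KRT8 lay between 349 and 659 CPM. The sum of these 11 markers was 1509 to 1676 CPM in NC and 960 to 1171 CPM after knockdown. It mostly reflects KRT8, KRT18 and KRT7, with means of 608, 418 and 382 CPM in NC. Of 10 markers tested, KRT7, KRT8 and PAX8 fell past the call limits given below (30%, beside 24.6% of all genes). The other markers were not called, among them KRT18 (94.7% of NC), ERBB2 (98.9%) and WT1 (129%). Log2 fold changes were below 0 for 9 of the 10. Of 15 leukocyte markers, 9 were at 0 in every library, including PTPRC, CD3D and MS4A1, and the sum was 2.20 to 2.32 CPM in NC and 2.28 to 2.92 CPM after knockdown. The part of the fall of KRT7, KRT8 and PAX8 in the results below was not tested.

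Knockdown of EIF5A2 was followed by a rise of 7 family members and a fall of 3. The ligands TNFSF15 and TNFSF9, both TRAIL death receptors (TNFRSF10A and TNFRSF10B), the soluble decoy TNFRSF11B and the receptors TNFRSF19 and EDA2R rose, by 1.55-fold to 9.29-fold. The ligand TNFSF12 and the receptors NGFR and TNFRSF13C fell. Here a call required a fold change over 1.5 together with a p-value under 0.05 in the quasi-likelihood test of edgeR, adjusted over all genes tested by the Benjamini-Hochberg method. Of the 46 members, 28 passed the filter on low counts and were tested, and 10 of them (35.7%) were called, beside 24.6% of all genes tested. The 7 that rose were 25% of the members tested, beside 11.1% of all genes, and the 3 that fell were 10.7%, beside 13.6% of all genes. The CPM ranges of the groups did not overlap in 17 of the 28 members, 60.7%, beside 51.2% of all genes. The median log2 fold change was 0.20 over the members tested and -0.01 over all genes tested. In bulk RNA, fewer cells of a type and less RNA per cell cannot be told apart.

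**Figure D1:**
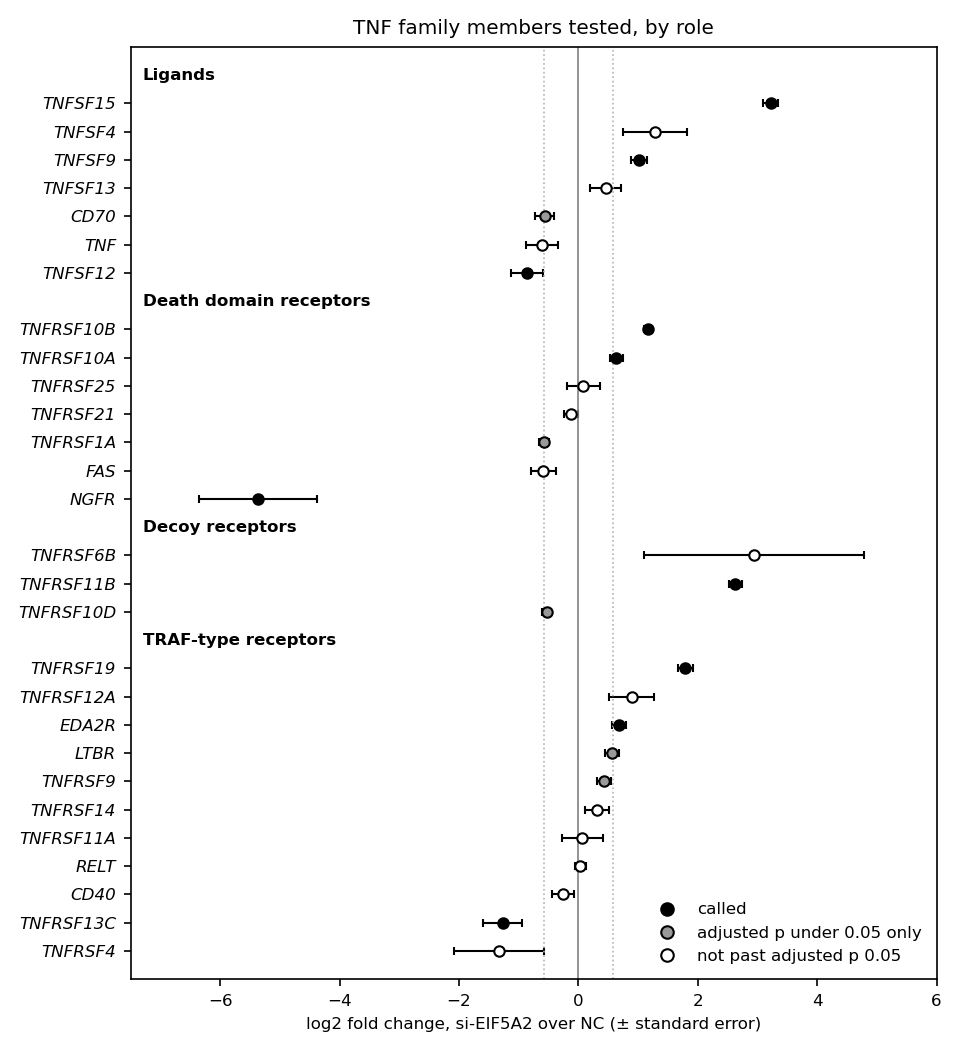
Log2 fold change (x axis, si-EIF5A2 over NC, with standard error) of the 28 members tested, grouped by role. Black points are called genes, grey points passed the adjusted p alone, open points did not pass it, and dotted lines mark the fold change limit of 1.5. TNFSF15 lies farthest to the right at 3.22 and NGFR farthest to the left at -5.37.

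The bases upstream of the transcription start are shown for 4 of the called members, since these are the windows in which shared motifs were sought. They are written 5′ to 3′ on the strand of the gene, from the GRCh38.p14 table of RefSeq, and capitals mark a match to the AP-1 motif TGANTCA or the TATA box TATAAA. The windows are chr9:114792531-114792780 (minus strand) for TNFSF15, chr19:6530776-6531025 (plus) for TNFSF9, chr13:23570162-23570369 (plus) for TNFRSF19 and chrX:66639270-66639519 (minus) for EDA2R.
TNFSF15: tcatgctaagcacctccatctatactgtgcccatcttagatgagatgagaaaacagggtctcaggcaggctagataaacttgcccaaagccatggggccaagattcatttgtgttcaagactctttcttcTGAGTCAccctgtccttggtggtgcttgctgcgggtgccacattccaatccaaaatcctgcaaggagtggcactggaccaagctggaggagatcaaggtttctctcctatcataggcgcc
TNFSF9: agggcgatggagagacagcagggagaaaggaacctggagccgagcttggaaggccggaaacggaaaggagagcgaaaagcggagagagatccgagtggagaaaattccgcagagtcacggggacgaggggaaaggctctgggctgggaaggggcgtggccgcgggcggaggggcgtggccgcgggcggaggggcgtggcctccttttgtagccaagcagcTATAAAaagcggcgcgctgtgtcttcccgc
TNFRSF19: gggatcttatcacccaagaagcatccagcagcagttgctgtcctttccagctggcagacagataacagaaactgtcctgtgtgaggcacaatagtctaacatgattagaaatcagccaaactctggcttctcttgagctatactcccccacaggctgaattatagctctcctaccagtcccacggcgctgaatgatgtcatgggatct
EDA2R: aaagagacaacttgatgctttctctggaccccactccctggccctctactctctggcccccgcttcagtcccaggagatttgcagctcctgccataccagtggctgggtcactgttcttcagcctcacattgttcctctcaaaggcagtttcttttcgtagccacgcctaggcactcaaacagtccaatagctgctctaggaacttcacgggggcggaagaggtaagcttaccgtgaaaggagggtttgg
TNFRSF19 and EDA2R have 2 starts each in the table and 1 is shown, and for TNFRSF19 the last 42 bases before the start, which GENCODE counts as exon, were left out. The last 27 bases of the TNFSF9 window and the last 29 of the EDA2R window are exon in GENCODE and are shown, so that the TATA box of TNFSF9 spans the GENCODE start of the gene. TNFSF15 held its AP-1 match 120 to 114 bases before its RefSeq start, and TNFSF9 held its TATA box 30 to 25 bases before the start. On the minus strand, the TNFSF15 window lies inside the gene as GENCODE bounds it, from 114784635 to 114806126. The RefSeq start used is therefore downstream of the GENCODE 5′ end of the gene, and 0 bases of the window are exon in GENCODE.

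Motifs were searched on both strands in the 250 bases before the start, and 30 of the 46 members had at least 1 entry. The AP-1 motif was present for 6 of the 30 members and in 6.57% of all 35116 promoters. Among tested members it was found for TNFSF15 (at a start inside the GENCODE gene), EDA2R (at the start not shown), FAS and TNFRSF9. The pattern TGANTCA reads the same on both strands, so every match, that of TNFSF15 included, fits both. The NF-kappaB consensus was present for 7 of the 30 members and in 5.21% of all promoters. Its tested members were FAS, TNFRSF14, TNFRSF9 and TNFSF13. Of these 4 members 0 were called, beside 4 of the 17 tested members with an entry, a number too small to read a difference from. The TATA box was present for 6 of the 30 members, among them TNF and TNFSF9, and in 10.7% of all promoters. Members with several starts had more windows in which a match could occur. A match is a description of these letters and not a bound site.

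Of the 17 ligands, 7 were tested, of which 2 rose and 1 fell (42.9% called, beside 24.6% of all genes). TNFSF15 (TL1A, a ligand of the death receptor TNFRSF25, on chromosome 9 from 114784635 to 114806126, GRCh38) had 9.80, 12.0 and 12.8 CPM in the NC libraries and 115, 97.1 and 110 CPM in the si-EIF5A2 libraries. All si-EIF5A2 libraries were far above all NC libraries, without overlap. It rose 9.29-fold, from 11.5 ± 1.56 to 107 ± 9.21 CPM (SD, n = 3 each). The log2 fold change was 3.22 (standard error 0.13, edgeR adjusted p = 4.92e-06). This was the largest rise among the members.

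TNFSF9 (4-1BB ligand, a costimulator of T cells, on chromosome 19 from 6530999 to 6535928) had 28.7, 23.4 and 20.3 CPM in NC and 46.4, 49.8 and 50.5 CPM after knockdown. The groups did not overlap. It rose 2.03-fold (log2 fold change 1.02, standard error 0.13, edgeR adjusted p = 6.47e-04).

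TNFSF12 (TWEAK, the ligand of TNFRSF12A, on chromosome 17 from 7548891 to 7557890) had 8.24, 17.2 and 13.3 CPM in NC and 5.75, 7.74 and 7.78 CPM after knockdown. NC replicate 1 was close to the si-EIF5A2 libraries, although the ranges did not overlap. It fell to 54.9% of the NC level (log2 fold change -0.86, standard error 0.27, edgeR adjusted p = 0.0415), and the call was lost when any library other than NC replicate 1 was left out (log2 fold change -0.60 without NC replicate 2). Of the 50-base windows of TNFSF12 transcripts, 26.9% also occur in the readthrough gene TNFSF12-TNFSF13, which had 253 counts in NC replicate 1 and 0 in the other 5 libraries, so that the division of counts between them is uncertain.

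CD70, the ligand of CD27, had 102, 76.2 and 77.9 CPM in NC and 55.5, 67.6 and 49.5 CPM after knockdown. All 3 values after knockdown were below all 3 NC values. The log2 fold change was -0.57 (standard error 0.15, edgeR adjusted p = 0.0222), under the fold change limit, and it passed both limits in 4 of the 15 alternative settings. CD70 missed the adjusted p without NC replicate 1 (edgeR adjusted p = 0.0575) and without si-EIF5A2 replicate 1 (edgeR adjusted p = 0.0724). It was the most abundant ligand, with a level of 55.6 ± 9.28 (SD, n = 3) in NC.

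TNF, the founding ligand, was at 2.25 ± 0.398 CPM in NC and 1.47 ± 0.287 CPM after knockdown (log2 fold change -0.61, edgeR adjusted p = 0.12). TNFSF13 (APRIL, a B cell survival factor) had a log2 fold change of 0.45 (edgeR adjusted p = 0.229), and 48.5% of its 50-base windows are shared with the same readthrough gene. TNFSF4 (OX40 ligand) was at 0.371 ± 0.134 and 0.900 ± 0.381 CPM, a log2 fold change of 1.28 (edgeR adjusted p = 0.0966). These 3 ligands were not called.

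Of the 8 death domain receptors, 7 were tested, of which 2 rose and 1 fell (42.9% called, beside 24.6% of all genes). TNFRSF10B (DR5, a death receptor for TRAIL) had 344, 349 and 344 CPM in NC and 790, 739 and 786 CPM after knockdown. The NC libraries were nearly equal and all si-EIF5A2 libraries were more than 2 times as high. It rose 2.23-fold (log2 fold change 1.16, standard error 0.06, edgeR adjusted p = 1.18e-05). TNFRSF10A (DR4, the other death receptor for TRAIL) had 37.2, 48.0 and 45.8 CPM in NC and 66.6, 69.1 and 67.2 CPM after knockdown, again without overlap. It rose 1.55-fold (log2 fold change 0.63, standard error 0.11, edgeR adjusted p = 0.00260), and it fell short of the fold change limit without NC replicate 1 (0.53).

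TNFRSF1A (TNFR1, the main receptor for TNF on most cells) had 446, 448 and 411 CPM in NC and 321, 278 and 278 CPM after knockdown. All si-EIF5A2 libraries were lower, without overlap. The log2 fold change of -0.57 (standard error 0.08, edgeR adjusted p = 0.00115) passed the adjusted p and lay just under the fold change limit, which it passed in 4 of the 15 alternative settings. FAS, the receptor for FASLG, had 35.4, 31.5 and 40.8 CPM in NC and 31.5, 17.9 and 22.2 CPM after knockdown, so that si-EIF5A2 replicate 1 reached the lowest NC library. Its log2 fold change was -0.59 (standard error 0.21, edgeR adjusted p = 0.0654), and it was called without si-EIF5A2 replicate 1 (-0.85).

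NGFR (the p75 neurotrophin receptor, on chromosome 17 from 49495293 to 49515017) had 0.932, 1.38 and 1.19 CPM in NC, and 0, 0.0766 and 0 CPM after knockdown. In fragments this was 59 against 1. The groups did not overlap, and all si-EIF5A2 libraries were under the floor of 3 fragments. The si-EIF5A2 level was 2.15% of NC, with a 95% exact interval of 0.0535% to 12.4% for counting error alone. It fell with an edgeR adjusted p of 0.00375, and its fitted log2 fold change of -5.37 (standard error 0.99) depends on the prior count. TNFRSF21 (DR6) had 22.8, 20.1 and 25.6 CPM in NC and 20.9, 20.9 and 21.1 CPM after knockdown, which overlapped (log2 fold change -0.12, edgeR adjusted p = 0.442). TNFRSF25 (DR3, the receptor for TNFSF15) was at 3.85 ± 1.48 CPM in NC and 4.08 ± 0.302 CPM after knockdown (log2 fold change 0.08, edgeR adjusted p = 0.849). Of the exon bases of NGFR, 22.3% are shared with a gene on the opposite strand, as are 13.4% in TNFRSF14, 11.9% in RELT, 9.01% in TNFRSF10A, 8.94% in TNFRSF25, 8.93% in FAS and 6.72% in LTBR. Another gene on the opposite strand shares 7.59% of the exon bases of TNFRSF10A, and another shares 4.87% of those of NGFR. Counting by strand is not stated, so these reads cannot be assigned to one of the genes.

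Of the 4 decoy receptors, 3 were tested and 1 rose (33.3% called, beside 24.6% of all genes). TNFRSF11B (osteoprotegerin, a secreted decoy for RANKL and TRAIL) had 11.2, 10.8 and 13.3 CPM in NC and 76.5, 71.2 and 69.8 CPM after knockdown, without overlap. It rose 6.17-fold (log2 fold change 2.63, standard error 0.11, edgeR adjusted p = 5.17e-06). TNFRSF10D (DcR2, a membrane decoy for TRAIL) had 206, 214 and 217 CPM in NC and 159, 139 and 144 CPM after knockdown, lower in every si-EIF5A2 library. Its log2 fold change of -0.53 (standard error 0.08, edgeR adjusted p = 0.00105) passed the adjusted p but not the fold change limit. TNFRSF10D passed both limits in 1 of the 15 alternative settings.

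TNFRSF6B (DcR3, a secreted decoy for FASLG and TNFSF15) had 5.65, 1.44 and 0.510 CPM in NC and 0.0391, 33.2 and 26.0 CPM after knockdown. The groups overlapped, since si-EIF5A2 replicate 1 was the lowest of all 6 libraries and the other si-EIF5A2 libraries were the highest. It was not called (log2 fold change 2.94, standard error 1.84, edgeR adjusted p = 0.288). All of its 50-base windows (100%) occur in the readthrough gene RTEL1-TNFRSF6B, which had 191, 145 and 134 CPM in NC and 18.3, 4.66 and 2.17 CPM after knockdown. The counts of these genes cannot be told apart by sequence within TNFRSF6B.

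The levels of the TRAIL receptors can be set beside each other within each library. The combined level of TNFRSF10A and TNFRSF10B was 1.36 ± 0.0256 times that of TNFRSF10D in NC and 4.15 ± 0.205 times in si-EIF5A2 libraries (SD, n = 3 each). The level of the soluble decoy TNFRSF11B was 0.0692 ± 0.00671 times that of TNFRSF10D in NC and 0.617 ± 0.0213 times in si-EIF5A2 libraries. TNFRSF10B was below TNFRSF1A in NC, at 0.618 ± 0.0279 times its level, and above it in si-EIF5A2 libraries, at 2.06 ± 0.141 times. Per kilobase of the longest transcript, this ratio was 0.427 ± 0.0193 in NC and 1.42 ± 0.0976 in si-EIF5A2 libraries, and that of both death receptors to TNFRSF10D was 1.65 ± 0.0305 and 5.08 ± 0.249. Each of these ratios was higher in every si-EIF5A2 library than in every NC library (2-sided exact permutation p = 0.10, the smallest that 3 against 3 libraries allow). The upper genes of the ratios were already higher and the lower genes already lower in every si-EIF5A2 library. This outcome was therefore fixed beforehand and adds no support. TNFSF10, which encodes TRAIL, had 8 counts in NC replicate 1 and 0 in the other 5 libraries.

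**Figure D2:**
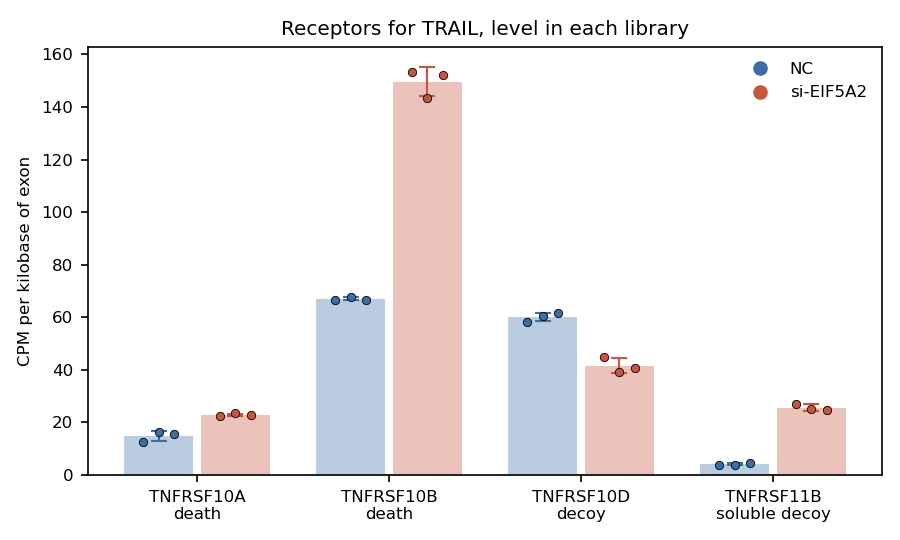
Level (y axis, CPM per kilobase of exon) of 4 receptors for TRAIL, with bars for the mean, error bars for the SD and points for the 3 libraries of each group (NC blue, si-EIF5A2 red). TNFRSF10B rises from 67.0 to 150 while TNFRSF10D is at 60.1 in NC and 41.6 in si-EIF5A2 libraries.

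Of the 17 receptors that signal through TRAF adaptors or are grouped with them, 11 were tested, of which 2 rose and 1 fell. The share called was 27.3%, beside 24.6% of all genes. TNFRSF19 (TROY, on chromosome 13 from 23570370 to 23676104) had 6.65, 7.02 and 8.21 CPM in NC and 26.4, 23.6 and 25.6 CPM after knockdown, without overlap. It rose 3.46-fold (log2 fold change 1.79, standard error 0.12, edgeR adjusted p = 3.04e-05). EDA2R (XEDAR, a receptor for an ectodysplasin isoform, on chromosome X from 66595637 to 66639298) had 44.8, 49.0 and 53.5 CPM in NC and 88.3, 80.8 and 68.2 CPM after knockdown. All si-EIF5A2 libraries were higher. It rose 1.61-fold (log2 fold change 0.69, standard error 0.12, edgeR adjusted p = 0.00257).

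TNFRSF13C (the BAFF receptor of B cells, on chromosome 22 from 41922023 to 41926818) had 1.80, 1.44 and 1.32 CPM in NC and 0.743, 0.517 and 0.625 CPM after knockdown. The groups did not overlap, at a low level in both. It fell to 41.4% of the NC level (log2 fold change -1.27, standard error 0.33, edgeR adjusted p = 0.0173), and the call was lost without NC replicate 1 (-1.13, edgeR adjusted p = 0.0695).

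TNFRSF12A (Fn14, the receptor for TNFSF12) had 146, 265 and 266 CPM in NC and 478, 249 and 527 CPM after knockdown. NC replicate 1 was well below the other NC libraries, and si-EIF5A2 replicate 2 lay within the NC range. The log2 fold change of 0.89 (standard error 0.38, edgeR adjusted p = 0.133) was not called, and it passed without si-EIF5A2 replicate 2 (1.15, edgeR adjusted p = 0.0388).

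LTBR (the lymphotoxin beta receptor) had 121, 146 and 107 CPM in NC and 182, 174 and 195 CPM after knockdown, without overlap. Its log2 fold change was 0.56 (standard error 0.12, edgeR adjusted p = 0.00739), under the fold change limit. LTBR passed both limits in 2 of the 15 alternative settings. TNFRSF9 (4-1BB, the receptor for TNFSF9) had 17.0, 20.1 and 18.5 CPM in NC and 27.7, 25.1 and 22.3 CPM after knockdown. It was also higher in every si-EIF5A2 library and under the fold change limit (log2 fold change 0.43, standard error 0.12, edgeR adjusted p = 0.0230). In the alternative settings its edgeR adjusted p reached up to 0.0812.

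CD40, a receptor known from antigen-presenting cells and also found on carcinoma cells, had 20.1, 23.1 and 31.3 CPM in NC and 19.6, 18.6 and 24.2 CPM after knockdown. RELT had 28.1, 24.6 and 25.9 CPM in NC and 26.0, 28.1 and 26.4 CPM after knockdown. Both overlapped between groups, with log2 fold changes of -0.26 for CD40 (edgeR adjusted p = 0.321) and 0.03 for RELT (edgeR adjusted p = 0.812). TNFRSF14 (HVEM), TNFRSF11A (RANK) and TNFRSF4 (OX40) had log2 fold changes of 0.31, 0.07 and -1.34 and were not called (edgeR adjusted p = 0.278, 0.903 and 0.211).

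The remaining 18 members, 10 ligands and 8 receptors, did not pass the filter on low counts, and no library held more than 18 counts or 0.313 CPM of any of them. Of these, 7 were at 0 in every library, namely the ligands CD40LG, TNFSF8, TNFSF11 and TNFSF18 and the receptors EDAR, TNFRSF13B and TNFRSF17. The others were the ligands FASLG, LTA, LTB, TNFSF10, TNFSF13B and TNFSF14 and the receptors CD27, TNFRSF1B, TNFRSF8, TNFRSF10C and TNFRSF18. Many of these are known from lymphocytes, of whose markers PTPRC, CD3D and MS4A1 were at 0 here, while CD8A had 14 to 44 counts and CD79A 10 to 28 counts in every library. A difference between the groups was not detectable for them at this depth.

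Ordered by level in NC, TNFRSF12A (122 ± 37.6, SD, n = 3) and TNFRSF1A (109 ± 5.21) stood first and overlapped with each other. TNFRSF10B (67.0 ± 0.588) was below both in every library, and was followed by TNFRSF10D (60.1 ± 1.61) and CD70 (55.6 ± 9.28), which overlapped. LTBR came next at 19.8 ± 3.20, and TNFRSF10A, TNFSF9 and EDA2R, at 14.8, 14.5 and 13.7, overlapped among themselves. TNFSF9, at 17.2, 14.1 and 12.2 in the NC libraries, also overlapped LTBR above (lowest 17.0) and CD40 below (highest 12.4). TNFRSF10A and EDA2R overlapped neither LTBR nor CD40. In si-EIF5A2 libraries TNFRSF10B (150 ± 5.44) stood above TNFRSF1A (72.9 ± 6.17), and TNFSF15 had moved from place 19 to place 12. The order depends on the length used. Per kilobase of the longest transcript instead of all exons, the NC levels were 196 for TNFRSF1A, 135 for TNFRSF12A, 93.4 for CD70, 83.3 for TNFRSF10B, 60.1 for TNFRSF10D and 53.5 for LTBR, which placed CD70 above TNFRSF10B and TNFRSF10D.

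Ligands and receptors were then set side by side in 32 known pairs. Both partners were tested in 6 pairs, and in 0 of these were both called. Of all genes tested 24.6% were called singly, so 6 pairs are too few to read a result from. TNFSF15 rose 9.29-fold while its signalling receptor TNFRSF25 had a log2 fold change of 0.08, and TNFSF9 rose while TNFRSF9 had 0.43. TNFSF12 fell while TNFRSF12A had 0.89. The decoy TNFRSF6B of TNFSF15 had 2.94 and was not called. TNF and TNFRSF1A had -0.61 and -0.57, and TNFSF4 and TNFRSF4 had 1.28 and -1.34, all without a call. In 16 pairs the receptor was tested and the ligand was not, as for TRAIL and its receptors.

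Below the receptors, 47 of 48 listed signalling genes were tested, of which 9 rose and 6 fell (31.9% called, beside 24.6% of all genes, median log2 fold change 0.13). The share that rose was 19.1%, beside 11.1%, and the share that fell was 12.8%, beside 13.6%. The exception was RIPK3, a kinase of necroptosis, at 0 in every library. The largest rise was that of BIRC3 (cIAP2, a ubiquitin ligase at the TNF receptor), from 26.6 ± 1.95 to 116 ± 14.6 CPM (SD, n = 3 each), with a log2 value of 2.12 (edgeR adjusted p = 1.06e-05). The adaptors TRAF4 (0.98) and TRAF3 (0.97) and the JNK pathway kinase MAP2K7 (0.93) rose as well, as log2 fold changes. BIRC2 (cIAP1, log2 fold change 1.05) and MAP3K14 (NIK, the kinase of the noncanonical NF-kappaB pathway, 0.99) were called but lost the call in 7 and 4 of the 15 alternative settings.

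TNIP1, an inhibitor of NF-kappaB signalling that binds A20, fell, with 447, 425 and 375 CPM in NC and 111, 125 and 131 CPM after knockdown (log2 fold change -1.76, edgeR adjusted p = 1.18e-05). The initiator caspase gene CASP10 (-1.35), FAF1, whose product binds FAS (-0.97), the adaptor TRAF5 (-0.87) and IKBKG, the NEMO subunit of the IKK complex (-0.83), fell on the log2 scale. EDARADD, the adaptor of EDAR, had 25 fragments in NC and 2 in si-EIF5A2 libraries, 10.1% of the NC level with a 95% exact interval of 1.16% to 40.7% for counting error alone, and lost its call in 6 settings.

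Of the 7 listed genes for shedding of ligands and receptors, 1 was called (14.3%, beside 24.6% of all genes tested). TIMP3, an inhibitor of the TNF-releasing protease ADAM17, fell from 32.6 ± 2.68 to 13.4 ± 2.54 CPM (SD, n = 3 each), with a log2 value of -1.28 (edgeR adjusted p = 4.17e-04). ADAM17 itself was at 46.2 ± 12.6 CPM in NC and 61.8 ± 3.85 CPM after knockdown (log2 fold change 0.42, edgeR adjusted p = 0.121). ADAM10 had a log2 fold change of 0.33 (edgeR adjusted p = 0.0269) and RHBDF1 of -0.57 (edgeR adjusted p = 0.00691), both under the fold change limit.

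Of 40 genes that TNF is known to induce through NF-kappaB, 37 were tested, of which 23 rose and 1 fell (64.9% called, beside 24.6% of all genes). The median log2 fold change of the list was 0.90. The list was written with earlier results of these data known and is not independent evidence of its direction. CXCL8 (interleukin-8, a neutrophil chemokine) rose 8.60-fold, from 42.1 ± 1.68 to 363 ± 23.1 CPM (SD, n = 3 each), with a log2 value of 3.10 (edgeR adjusted p = 4.18e-06). The chemokine genes CXCL3 (2.44) and CCL20 (1.92), the growth factor gene CSF2 (2.04), the syndecan gene SDC4 (1.86) and the adhesion molecule gene ICAM1 (1.78) also rose on the log2 scale. REL, an NF-kappaB subunit, was the gene that fell, with 1.01, 1.44 and 2.06 CPM in NC and 0.293, 0.153 and 0.250 CPM after knockdown (log2 fold change -2.68, edgeR adjusted p = 0.00279). After knockdown REL had only 15, 8 and 12 counts, and si-EIF5A2 replicate 2 was under its floor of 0.218 CPM.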

How the data were processed

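RNA of SKOV3 cells was sequenced by the authors as paired-end mRNA libraries, and the authors deposited estimated counts per gene, which they made with StringTie and ballgown and gave without normalization as whole numbers. The aligner, genome build and annotation release are not given in the methods. The processing notes of the submitters name Bowtie 0.12.2 and mouse builds, which do not go with the human gene identifiers. Names, exon lengths and positions were taken from GENCODE release 29 (GRCh38), which held 58552 of the 58825 identifiers. The test had been planned for counts and was run on the estimated counts. All 6 libraries were fitted with edgeR 4.0.16 in R 4.3.3 (filterByExpr, TMM, robust quasi-likelihood, condition as the only term) and p-values were adjusted by Benjamini-Hochberg over 16208 genes. Standard errors were derived from the F statistic. Calls needed a fold change over 1.5 and an adjusted p under 0.05. Upstream sequences were those of RefSeq. Members and gene lists were chosen with earlier results of these data known. Every member is named, with each library's value where it was called or averaged at least 10 CPM, and of each other list at most the 6 largest called rises and falls. The readthrough genes were named after their values were seen. Tests on simulated data preceded the fits. Alternatives were DESeq2 1.42.0, other normalizations and filters, a replicate block and leaving out each library. In 2 more settings, identifiers with the same symbol were summed or counts were divided by the estimated counts per fragment. These made the 15 alternative settings for single genes, and other thresholds were applied to the numbers of genes called.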

Additional observations from a re-analysis of the deposited data

How the results depend on the processing

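Of the 149 values of the 10 called members under 15 alternative settings, 142 kept their direction and call, 7 lost the call and 0 reversed, and 6 members were called in every setting. NGFR was called in the 14 settings in which it was tested, and was not tested with at least 10 counts in every library. The calls lost were those of TNFSF12, TNFRSF10A and TNFRSF13C when single libraries were left out. The number of members that fell was 5 with no filter on low counts and 6 without a fold change limit, and ranged from 2 to 5 when each library was left out. Shedding genes called were 2 (2 of them lower) with no filter, 3 (1 higher, 2 lower) without a fold change limit, and with each library left out 1 to 3, with 0 to 1 higher and 1 to 2 lower. TNF-induced genes that fell were 0 with at least 10 counts in every library, a setting in which REL was not tested. Without a fold change limit 3 fell, and with each library left out the number ranged from 1 to 2. With the limits stated in the methods (a 2-fold change and an unadjusted p under 0.05), 7 signalling genes passed, 3 of them higher, and 15 TNF-induced genes passed, 14 of them higher, beside 14.6% of all genes tested (5.38% higher). EDA2R, TNFRSF10A and TNFSF12 changed less than 2-fold and did not pass these limits. DESeq2 called 11 members, 7 higher and 4 lower, and the replicate block gave the same numbers. Deviations of same-numbered libraries correlated with r of -0.0244, 0.00522 and -0.00269, so no shared effect of the replicate number was seen. These values cannot decide whether the libraries were prepared in pairs. The block added FAS to the calls. The cause of these changes was not tested. Depth limits the members under the filter and NGFR, TNFRSF4, TNFSF4 and TNFRSF13C, which rest on few fragments. The same holds for EDARADD, CCL20 and REL in the other lists.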
